A study of Mus musculus with 16 samples.

Results

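A set of 10 genes that megakaryocytes and platelets use, and that part of the HSC pool also transcribes, was followed in HSCs of WT and Gfra2-/- mice, sorted from endosteal and from central BM. The genes (Vwf, Itga2b, Gp9, Gp5, Gp1bb, Selp, Cd9, Clec1a, Pf4 and Nfe2) were chosen by name, and all of them were among the 46078 genes of the count table. HSCs were LSK CD48-CD150+ cells of C57/Bl6 mice without treatment, sorted in pools of 30 from tibia, femur and humeri. Endosteal HSCs came from the bone fraction, which is released when flushed bones are crushed, and central HSCs from the flushed marrow. Gfra2-/- mice lack the receptor GFRα2 in every cell, including the cholinergic neurons that need it to survive, so a difference between genotypes cannot be assigned to one cell type. The study calls the pools biological replicates, but the labels do not tie them to separate mice, so p-values measure the spread between pools.

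There were 4 endosteal WT, 4 central WT, 4 endosteal Gfra2-/- and 3 central Gfra2-/- libraries, named A to D within each group in the order of the table. Reads on genes ranged from 4416648 to 14003634 in endosteal WT libraries, from 826487 to 3367289 in central WT libraries, from 8519094 to 18550008 in endosteal Gfra2-/- libraries and from 7649803 to 14716308 in central Gfra2-/- libraries. Central WT libraries were thus all shallower than those of every other group, and their depth and their group cannot be told apart. Libraries A and C of the central WT group had under 1500000 reads on genes. The methods of the study state a limit of that size for uniquely mappable reads, which also include reads outside genes. Whether these libraries missed the limit of the study was not tested. Gfra2 itself had at most 4 counts in the libraries of the other 3 groups, but 2, 47, 1 and 9 counts in endosteal Gfra2-/- libraries A to D. These reads in libraries B and D are at odds with a knockout, so the genotype is given as labelled, and values without both libraries are added where they change a result. Whether these reads lie in the deleted part of the gene was not tested. Spike-in RNAs took under 0.5% of the reads in 4 libraries, namely library D of the first 3 groups and central Gfra2-/- library C.

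Megakaryocytes are the marrow cells that shed platelets, and some HSCs already transcribe megakaryocyte genes, a state known as platelet priming or bias. On platelets, the GPIb-IX-V complex binds von Willebrand factor and holds the cell to a damaged vessel wall, and the integrin αIIbβ3 then binds fibrinogen and links platelets together. Alpha granules carry von Willebrand factor, P-selectin and platelet factor 4, and the transcription factor NF-E2 drives the last steps of platelet formation. Vwf and Selp are also transcribed by endothelial cells, and Cd9 and Nfe2 by several other blood lineages.

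The promoter table of RefSeq (GRCm38.p6) held 7 of the 10 genes (Itga2b, Pf4, Gp1bb, Gp5, Gp9, Selp and Cd9). The 250 bases before the start site of 4 of them are shown, because their levels separated groups (Pf4, Gp9, Selp) or went together with those of another member (Gp5), and because these windows overlap no annotated exon. They are written 5′ to 3′ on the strand of the gene, and capitals mark matches, on either strand, to the GATA motif (AGATAA or TGATAA), the ETS motif (AGGAAG or CGGAAG) or the NF-E2 motif (TGANTCA). The last of these letters also fit AP-1 factors, and no match overlapped another.
Pf4, chr5:90772185-90772434, plus strand: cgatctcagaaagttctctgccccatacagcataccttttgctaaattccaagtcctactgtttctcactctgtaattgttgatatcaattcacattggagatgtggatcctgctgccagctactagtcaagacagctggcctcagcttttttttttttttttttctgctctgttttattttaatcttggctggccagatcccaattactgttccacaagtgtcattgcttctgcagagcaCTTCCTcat
Gp9, chr6:87777820-87778069, plus strand: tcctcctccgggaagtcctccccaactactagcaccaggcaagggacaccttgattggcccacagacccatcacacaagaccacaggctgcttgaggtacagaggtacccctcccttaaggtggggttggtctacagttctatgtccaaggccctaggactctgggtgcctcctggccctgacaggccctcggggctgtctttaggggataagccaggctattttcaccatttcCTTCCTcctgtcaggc
Gp5, chr16:30310782-30311031, minus strand: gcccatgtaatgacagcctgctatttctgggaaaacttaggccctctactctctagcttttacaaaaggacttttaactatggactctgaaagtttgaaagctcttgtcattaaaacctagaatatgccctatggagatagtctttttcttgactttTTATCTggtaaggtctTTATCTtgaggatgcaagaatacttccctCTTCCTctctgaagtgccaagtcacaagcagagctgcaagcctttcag
Selp, chr1:164115014-164115263, plus strand: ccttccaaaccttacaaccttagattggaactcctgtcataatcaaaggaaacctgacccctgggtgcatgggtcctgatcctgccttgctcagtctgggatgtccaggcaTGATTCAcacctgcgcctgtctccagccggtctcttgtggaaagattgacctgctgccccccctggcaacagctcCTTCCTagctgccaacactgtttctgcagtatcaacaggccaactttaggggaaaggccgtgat

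An ETS match was present in all 7 of the windows, against 39.2% of the 32851 windows of the whole table. It lay 4 to 9 bases before the start of Pf4, 11 to 16 before that of Gp9, 43 to 48 before that of Gp5 and 59 to 64 before that of Selp. A GATA match was found in 1 of the 7 (Gp5, which held 2 copies), against 16.6% of all windows, and an NF-E2 match in 2 of the 7 (Gp1bb and Selp), against 6.75%. The windows of Gp1bb and Cd9 lay wholly within annotated exons, as did 180 of the 250 bases of that of Itga2b. These matches are letters in a window and were not tested as binding sites.

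Levels were compared between genes as CPM per kb of annotated exon, where CPM are counts relative to the TMM-scaled library total. Over the 15 libraries the median was 126 CPM per kb for Nfe2, the transcription factor, and 51.8 for Cd9, a tetraspanin of the platelet and HSC surface. Nfe2 was above Cd9 in 15 of 15 libraries, and no other neighbouring pair in the order was separated in every library. Pf4, the chemokine platelet factor 4, had a median of 24.9 CPM per kb but a range from 0.932 to 403. Gp9 (18), Itga2b (17.5) and Vwf (8.99) followed, and Pf4 was above Gp9 in 8 of 15 libraries and Gp9 above Itga2b in 9 of 15, so these neighbours cannot be ordered. Gp5 (6.11), Clec1a (4.55), Selp (1.36) and Gp1bb (0.859) had the lowest medians. Against the longest transcript instead of all exons, the mean level rose from 9.72 to 17.7 CPM per kb for Vwf and from 134.8 to 214 for Nfe2, so the order rests in part on the gene models.

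**Figure D1:**
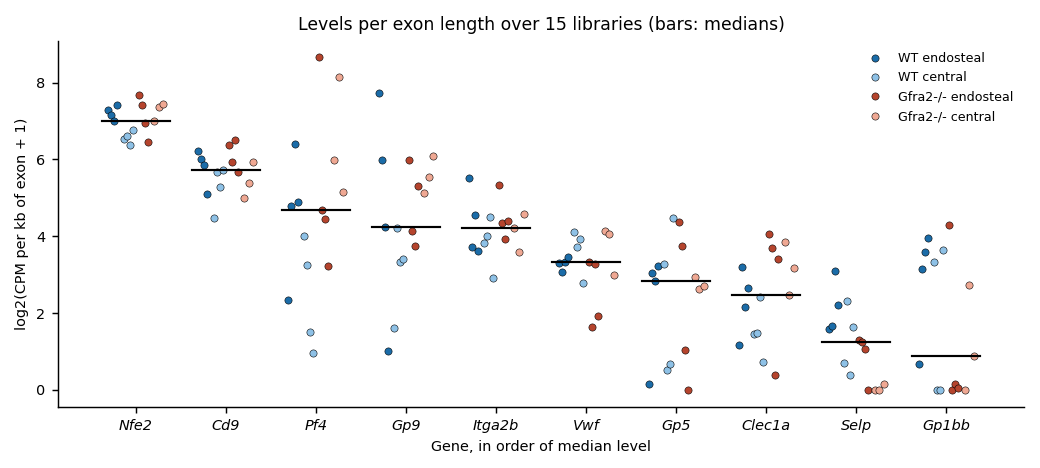
Level of each of the 10 genes, as log2(CPM per kb of exon + 1), in each of the 15 libraries (points, coloured by group), with genes in order of their median (bars). Nfe2 and Cd9 form narrow bands, while Pf4 spans from 0.932 to 403 CPM per kb.

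Part of the set was detected throughout. Vwf, Itga2b, Clec1a, Cd9 and Nfe2 had over 3 counts in 15 of 15 libraries, and their coefficients of variation over all libraries were 46.8%, 53.6%, 81.8%, 35.5% and 27.8%. The others were patchy, with over 3 counts in 14 libraries for Gp9, 13 for Pf4, 11 for Gp5, 10 for Selp and 9 for Gp1bb, and coefficients of variation from 96.5% for Gp5 to 174% for Pf4. All 10 genes passed 3 counts together in 5 of 15 libraries, and the fewest, 6 genes, did so in central WT library C, which was also the shallowest. A pool holds 30 cells, and in such a bulk sample fewer expressing cells and less RNA per cell cannot be told apart.

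**Figure D2:**
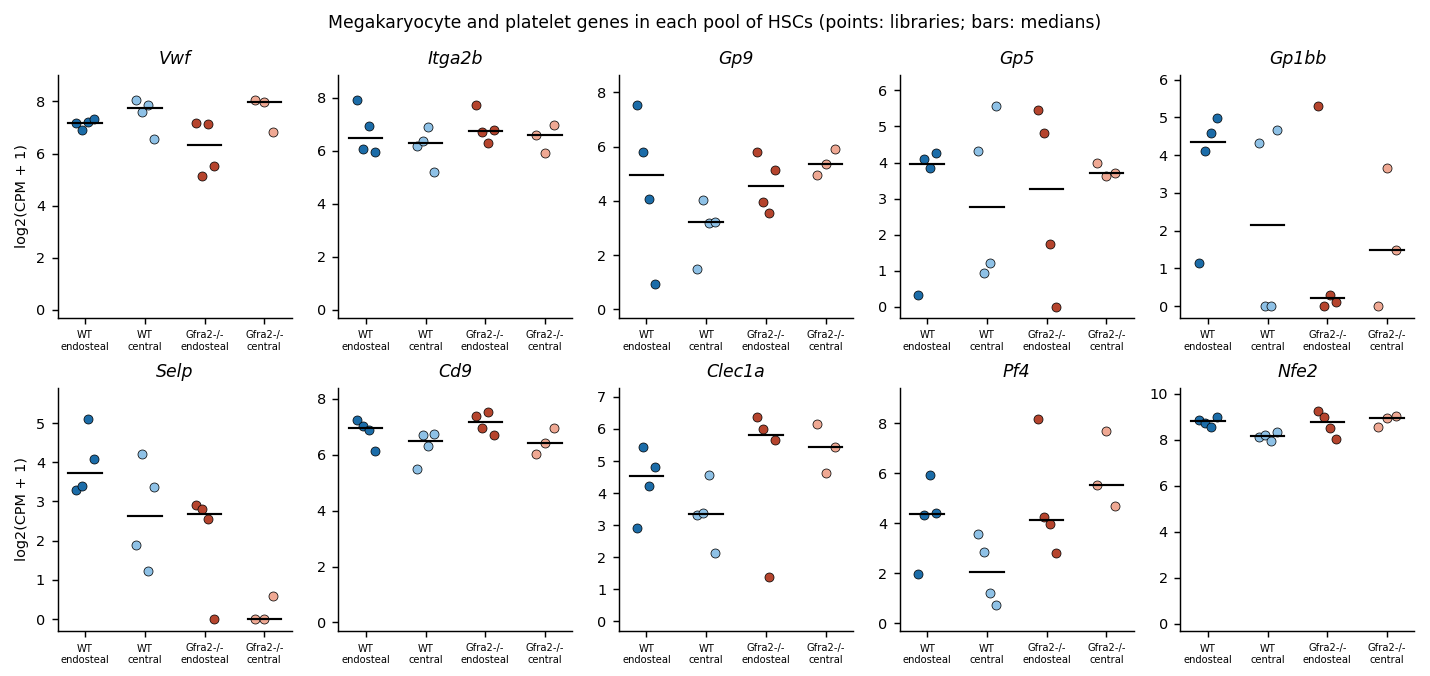
Level of each gene as log2(CPM + 1) in every library (points), with the median of each group (bars), for endosteal and central HSCs of WT mice and of mice labelled Gfra2-/-. For Nfe2, central WT libraries lay below all endosteal WT and all central Gfra2-/- libraries but overlapped with endosteal Gfra2-/- libraries, and Selp was at or near 0 in central Gfra2-/- libraries.

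No member passed an FDR of 0.1 in any of the 4 pairwise comparisons, the interaction or the 2 averaged contrasts with edgeR's quasi-likelihood test. Of all genes tested, 0.051% passed in the central comparison of genotypes, 0.0519% for the averaged compartment, 0.824% for the averaged genotype and 0% in the other 4. The values below at an unadjusted p under 0.05 are therefore descriptions, and they are set beside the share of all tested genes under the same rule.

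Vwf encodes von Willebrand factor, the ligand of the GPIb-IX-V complex, and marks platelet-biased HSCs in mice. In WT mice, endosteal libraries A to D held 143, 119.7, 146 and 159 CPM, and central libraries 262, 195, 229.9 and 93.7 CPM. Endosteal Gfra2-/- libraries held 144, 33.8, 140.4 and 44.8 CPM, and central Gfra2-/- libraries 267, 251 and 111.8 CPM. Values in central libraries were mostly higher, but each group of central libraries contained one as low as endosteal libraries, so the groups overlapped. The log2 fold change in endosteal (compared with central) HSCs was -0.48 ± 0.38 (SE) in WT libraries (edgeR, FDR = 0.793) and -1.21 ± 0.57 in libraries labelled Gfra2-/- (FDR = 0.9995). The WT value ranged from -0.74 to -0.29 with 1 library left out and was -0.040 without central WT libraries A and C. Averaged over both genotypes it was -0.83 ± 0.34 (edgeR, FDR = 0.403), under an unadjusted p of 0.05. Without endosteal Gfra2-/- libraries B and D, the 2 lowest for Vwf and those with Gfra2 counts, the difference in libraries labelled Gfra2-/- was -0.56, and the averaged value was -0.47 and no longer under that limit. Between genotypes, Vwf differed by 0.08 ± 0.45 in central HSCs (FDR = 0.979) and by -0.64 ± 0.48 in endosteal HSCs (FDR = 0.842), both on the log2 scale, and the latter was 0.0015 without libraries B and D.

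Itga2b encodes the αIIb chain of the platelet integrin, also known as CD41, which appears early in megakaryocyte development. Its levels were 244.9, 65.9, 122 and 61.3 CPM in the endosteal WT libraries and 72.3, 81.9, 119 and 35.9 CPM in the central WT libraries. In libraries labelled Gfra2-/- they were 215, 104.6, 77.7 and 110.0 CPM in endosteal and 95.7, 59.8 and 125 CPM in central HSCs. The highest value of each endosteal group was in library A, and the remaining endosteal values lay within the central range or just outside it. The log2 fold change in endosteal (compared with central) HSCs was 0.67 ± 0.57 in WT libraries (edgeR, FDR = 0.809) and 0.44 ± 0.43 in libraries labelled Gfra2-/- (FDR = 0.9995). Without endosteal WT library A it was 0.05 in WT, and without endosteal Gfra2-/- library A it was 0.06 in libraries labelled Gfra2-/-. Between genotypes it was 0.26 ± 0.57 in central (FDR = 0.939) and 0.04 ± 0.50 in endosteal HSCs (FDR = 0.992). Itgb3, which encodes the β3 partner chain, is described with the other megakaryocyte genes.

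Gp9, Gp5 and Gp1bb encode subunits of the GPIb-IX-V complex, and Gp1ba, the subunit that binds von Willebrand factor, was counted beside them. All 4 subunits had over 3 counts in 6 of 15 libraries. Only Gp9 did in endosteal Gfra2-/- library D (392 counts) and in central WT libraries B (50) and C (6). Gp9 had 184.7, 55.0, 15.9 and 0.898 CPM in the endosteal WT libraries and 1.81, 15.5, 8.02 and 8.40 CPM in central WT libraries. In libraries labelled Gfra2-/- it had 54.9, 14.5, 10.8 and 34.2 CPM in endosteal and 29.9, 40.0 and 58.6 CPM in central HSCs. Every central Gfra2-/- value was above every central WT value, while endosteal WT values spread over the whole range. The log2 fold change of Gp9 was 2.89 ± 1.24 in endosteal (compared with central) WT HSCs (edgeR, FDR = 0.595) and 2.31 ± 0.98 in central Gfra2-/- (compared with WT) HSCs (FDR = 0.528). The interaction, which is the compartment difference in libraries labelled Gfra2-/- minus that in WT, was -3.48 ± 1.51 (edgeR, FDR = 0.666). All 3 were under an unadjusted p of 0.05, but they share libraries and are not independent. Without endosteal WT library A the first value was 1.43 and the interaction -2.06, and neither was under that limit. Without endosteal Gfra2-/- libraries B and D the interaction was -3.29, again not under it. With spike-in size factors, and the median of all genes subtracted, the first value was 0.80 and the interaction -1.31, and the test before subtraction did not pass the limit for either. The central difference between genotypes missed it in 6 of 7 fits that left out 1 library (1.98 to 2.78 over all 7).

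Gp5 encodes glycoprotein V. It had 0.243, 16.0, 13.4 and 18.4 CPM in endosteal WT and 19.0, 0.930, 1.34 and 46.7 CPM in central WT libraries. Libraries labelled Gfra2-/- had 43.1, 27.5, 2.31 and 0 CPM in endosteal HSCs, and 14.7, 11.4 and 12.2 CPM in central HSCs. High and low libraries stood side by side in 3 of the 4 groups, and the central Gfra2-/- group alone was narrow.

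Gp1bb encodes the GPIbβ chain, and its counts are uncertain, because the gene overlaps Sept5 and Gm49601 on the same strand. It had 1.21, 16.3, 22.9 and 30.4 CPM in endosteal WT and 19.0, 0, 0 and 24.2 CPM in central WT libraries, against 38.7, 0, 0.231 and 0.0873 CPM in endosteal and 0, 11.7 and 1.79 CPM in central libraries labelled Gfra2-/-. A count of 0 allows up to 0.930 CPM in central WT library B, 4.01 CPM in the shallow library C, 0.151 CPM in endosteal Gfra2-/- library B and 0.196 CPM in central Gfra2-/- library A, at 3 counts and for counting error only. Neither Gp5 nor Gp1bb reached an unadjusted p of 0.05 in any comparison.

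Selp encodes P-selectin, an adhesion receptor of alpha granules. It had 8.75, 9.51, 33.5 and 15.8 CPM in endosteal WT and 2.71, 17.4, 1.34 and 9.41 CPM in central WT libraries. Endosteal Gfra2-/- libraries had 6.48, 5.99, 4.85 and 0 CPM, and central Gfra2-/- libraries 0, 0 and 0.512 CPM. All endosteal Gfra2-/- values were below all endosteal WT values, and all central Gfra2-/- values were below all central WT values. In the central groups the counts were 3, 56, 1 and 28 in WT and 0, 0 and 4 in libraries labelled Gfra2-/-, and the gene did not pass the filter on low counts there, so no fold change is given. A count of 0 allows up to 0.196 and 0.283 CPM in central Gfra2-/- libraries A and B. Averaged over both compartments, the log2 fold change between genotypes was -3.73 ± 1.25 (edgeR, FDR = 0.181), and DESeq2's Wald test gave -3.84 with an FDR of 0.00878. After thinning all libraries to the depth of the smallest, the value was -2.66, and without central Gfra2-/- library C, which held the 4 counts, it was -5.56. Averaged over genotypes, Selp was higher in endosteal (compared with central) HSCs by 2.88 ± 1.19 on the log2 scale (FDR = 0.404), a value that was 1.53 after thinning and 4.74 without central Gfra2-/- library C. Gm16548 and Gm16587 overlap Selp on the opposite strand, and counting ignored strand. HTSeq in its default mode sets aside reads that fall on more than 1 gene, so the counts of Selp are uncertain.

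Cd9 had 149.9, 129, 116 and 68.7 CPM in endosteal WT and 43.4, 102, 77.5 and 106 CPM in central WT libraries. In libraries labelled Gfra2-/- it had 167, 122, 183 and 103 CPM in endosteal and 63.2, 83.5 and 123 CPM in central HSCs. The endosteal means were the higher ones in both genotypes, 116 ± 34.5 (SD, n = 4) against 82.2 ± 28.8 (SD, n = 4) and 144 ± 37.4 (SD, n = 4) against 89.8 ± 30.2 (SD, n = 3), but the groups overlapped and no comparison reached an unadjusted p of 0.05. Opposite-strand genes (Gm26728 and Gm28809) overlap Cd9 too.

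Clec1a encodes a C-type lectin-like receptor. Its levels were 6.56, 42.6, 17.8 and 27.2 CPM in endosteal WT, 9.04, 9.30, 22.7 and 3.36 CPM in central WT, 81.8, 62.3, 1.62 and 49.7 CPM in endosteal Gfra2-/- and 69.7, 23.6 and 42.0 CPM in central Gfra2-/- libraries. Central groups did not overlap, although the lowest Gfra2-/- value (23.6) was close to the highest WT value (22.7). Endosteal Gfra2-/- library C was far below the other 3 of its group. Averaged over both compartments, the log2 fold change between genotypes was 1.55 ± 0.67 (edgeR, FDR = 0.295), under an unadjusted p of 0.05. Without endosteal Gfra2-/- libraries B and D it was 1.47 and not under that limit.

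Pf4, a chemokine stored in alpha granules, varied most. It had 2.92, 19.3, 60.0 and 20.6 CPM in endosteal WT and 10.8, 6.20, 1.34 and 0.672 CPM in central WT libraries. Endosteal Gfra2-/- libraries had 291, 17.9, 14.9 and 6.02 CPM, and central Gfra2-/- libraries 45.2, 204 and 24.7 CPM. All 3 central Gfra2-/- libraries were above all 4 central WT libraries, whereas the endosteal groups overlapped apart from library A. In central HSCs the log2 fold change between genotypes was 4.23 ± 1.12 (edgeR, FDR = 0.318), and DESeq2's Wald test gave 4.13 with an FDR of 0.00731. The edgeR value was 4.63 after thinning, 4.27 in libraries with at least 0.5% spike-in reads and 2.83 without central Gfra2-/- library B, the only 1 of these 4 values that was not under an unadjusted p of 0.05.

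Averaged over both compartments, the log2 fold change of Pf4 between genotypes was 2.97 ± 0.89 (edgeR, FDR = 0.144), and DESeq2 gave 2.92 with an FDR of 0.0108. Without endosteal Gfra2-/- library A it was 1.64, and without endosteal Gfra2-/- libraries B and D it was 3.45. The interaction was -2.59 ± 1.71 (edgeR, FDR = 0.792), so the genotype difference was not shown to differ between compartments. Tubb1, the tubulin of mature megakaryocytes and platelets, was looked up after these values were seen. It had over 3 counts in the 2 libraries highest for Pf4, with 11.7 CPM in endosteal Gfra2-/- library A and 8.20 CPM in central Gfra2-/- library B, and in no other. Of the other genes of its marker list, Clec1b also peaked in central Gfra2-/- library B, at 16.9 CPM. The rest peaked elsewhere, Gp6 at 0.653 CPM in endosteal WT library D, Treml1 at 148 CPM in central WT library C, Ppbp at 146 CPM in central WT library A, Gp1ba at 56.8 CPM in central Gfra2-/- library A and Itgb3 at 293 CPM in endosteal WT library A. The part of such cells or RNA in the Pf4 values was not tested.

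Nfe2 encodes the p45 subunit of NF-E2. It had 465, 427, 377 and 512 CPM in endosteal WT and 272, 291, 246 and 321 CPM in central WT libraries. Endosteal Gfra2-/- libraries had 608, 509, 367 and 260.2 CPM, and central Gfra2-/- libraries 376, 486 and 522 CPM. Central WT libraries lay below every endosteal WT and every central Gfra2-/- library, while endosteal Gfra2-/- libraries (260.2 to 608 CPM) overlapped with every other group. The log2 fold change was 0.63 ± 0.26 in endosteal (compared with central) WT HSCs (edgeR, FDR = 0.587) and 0.68 ± 0.29 in central Gfra2-/- (compared with WT) HSCs (FDR = 0.528). Both contrasts rest on the same 4 central WT libraries. After thinning they were 0.56 and 0.57, and neither was under an unadjusted p of 0.05.

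**Figure D3:**
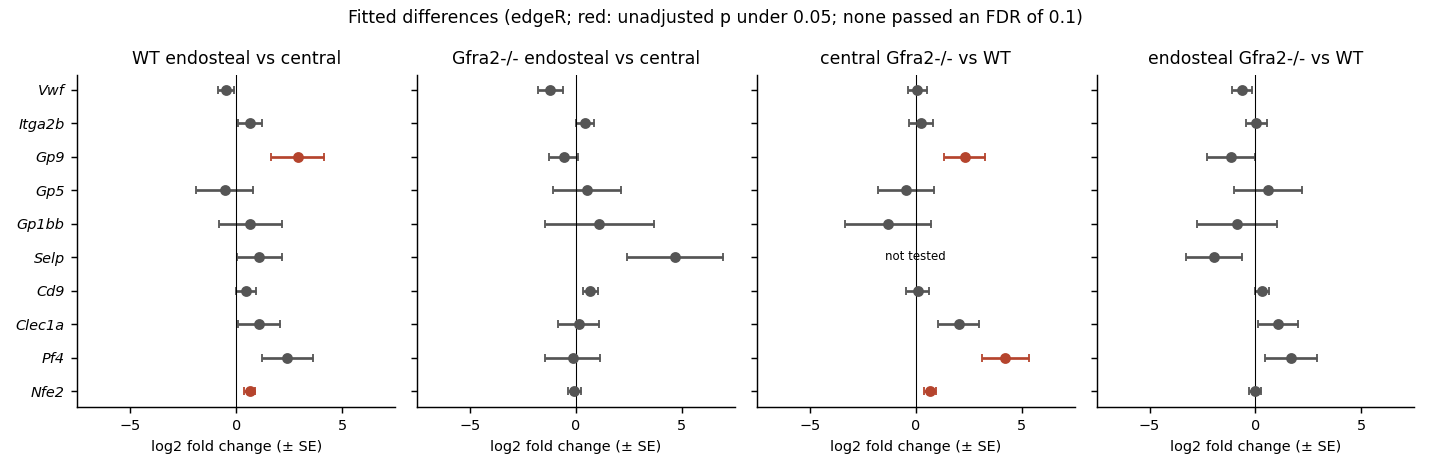
Log2 fold change (± SE, edgeR) of each gene in the 4 pairwise comparisons, with values at an unadjusted p under 0.05 in red. In central Gfra2-/- (compared with WT) HSCs, Pf4 (4.23), Gp9 (2.31) and Nfe2 (0.68) are red and Selp was not tested.

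The values under an unadjusted p of 0.05 were then followed over sets of libraries. When 1 library at a time was left out, those of Pf4 and Selp between genotypes averaged over compartments stayed under that limit in 15 of 15 fits, and that of Pf4 in central HSCs in 6 of 7. The others passed it in part of the fits, missing it in 4 of 8 for Gp9 and 4 of 8 for Nfe2 in WT HSCs, 5 of 7 for Nfe2 in central HSCs, 7 of 15 for the interaction of Gp9, 7 of 15 for Clec1a, 4 of 15 for Vwf and 3 of 15 for Selp between compartments. Central WT libraries A and C had under 1500000 reads on genes. Without them, Gp9 (2.40) and Nfe2 (0.52) were not under an unadjusted p of 0.05 in WT HSCs. Nor were Gp9 (1.80) and Nfe2 (0.55) in central HSCs between genotypes, the interaction of Gp9 (-2.97), or Vwf (-0.62) and Selp (2.51) between compartments. Between genotypes in central HSCs, 3 members were under it without these libraries, Pf4 (4.69) among them.

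Libraries under 0.5% spike-in reads give 1 pair for each pairwise comparison, whose difference of log2(CPM + 1) can be set beside the edgeR value of the other libraries. In WT HSCs the pair went against the others for Gp9 (-2.31 against 3.23) and Vwf (0.76 against -0.82), and with them for Nfe2 (0.67 against 0.58) and Itga2b (0.75 against 0.59). In libraries labelled Gfra2-/- the endosteal (compared with central) values were -1.30 against -1.27 for Vwf and -0.18 against 0.78 for Itga2b. Between genotypes in central HSCs they were 3.94 against 4.27 for Pf4, 2.67 against 1.98 for Gp9, 0.70 against 0.63 for Nfe2, 0.25 against 0.13 for Vwf and 1.77 against -0.27 for Itga2b. In endosteal HSCs they were -1.81 against -0.35 for Vwf and 0.83 against -0.12 for Itga2b. The edgeR values of Nfe2 in both comparisons and of Gp9 in central HSCs were not under an unadjusted p of 0.05 in these libraries.

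Set against all genes, the members stood as follows. In endosteal (compared with central) WT HSCs, 2 of 10 members (Gp9 and Nfe2) passed an unadjusted p of 0.05 as higher and 0 as lower, against 4.43% and 3.46% of the 11181 genes tested. The median log2 fold change was 0.67 over the members and 0.03 over all genes, 8 of 10 members had a positive value against 51.5% of all genes, and 1 (Nfe2) was higher without overlap of the groups, against 4.27%, and 0 lower, against 2.10%. In libraries labelled Gfra2-/- the same comparison had 0 of 10 members higher and 0 lower at that limit, against 2.74% and 2.05% of 13860 genes, and 0 without overlap in either direction, against 3.68% and 3.67%. The member median was 0.28, against 0.03 over all genes, and 6 of 10 were positive, against 51.6%. DESeq2 passed 0 members in both genotypes, against 1.97% of genes in WT and 1.22% in Gfra2-/- libraries.

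In central Gfra2-/- (compared with WT) HSCs, 3 of 9 tested members (Pf4, Gp9 and Nfe2) were higher and 0 lower at an unadjusted p of 0.05, against 4.6% and 4.14% of 11772 genes. Groups did not overlap for 4 of 9 members (Pf4, Gp9, Clec1a and Nfe2), all higher, against 7.98% of genes in that direction and 4.45% in the other. The filter on low counts left out Selp, which was lower without overlap, at 0 to 0.512 CPM against 1.34 to 17.4 CPM in WT. Pf4, with 0.672 to 10.8 CPM in WT, needed the Gfra2-/- libraries to pass it. The directions among the 9 tested members, with 0 lower, thus depend in part on the filter. A positive value was found for 7 of 9, against 51.4%. The median over these 9 members was 0.26, against 0.03 over all genes, and DESeq2 passed 1 of 9 (Pf4) against 3.59% of all genes. In endosteal HSCs, 0 of 10 members were higher and 0 lower at that limit, against 3.18% and 3.52% of 12970 genes. The median was 0.01, against 0.03, 5 of 10 were positive, against 51.5%, and 1 of 10 (Selp) was lower without overlap, against 3.55%, and 0 higher, against 2.68%. DESeq2 passed 0 members and 1.09% of genes.

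Over all 15 libraries, 1 of 10 members (Gp9) had a negative and 0 a positive interaction at that limit, against 4.41% and 2.56% of 15416 genes, and the interaction median was -0.49 over the members and -0.12 over all genes. For the compartment averaged over genotypes, 1 member was higher (Selp) and 1 lower (Vwf), against 6.12% and 4.65% of genes, and for the genotype averaged over compartments 2 were higher (Pf4 and Clec1a) and 1 lower (Selp), against 8.3% and 6.2%. DESeq2 passed 0 members for the interaction and the compartment, against 1.15% and 3.32% of genes. For the genotype, edgeR passed 127 genes at an FDR of 0.1 but 0 members, and DESeq2 passed 2 members (Pf4 and Selp) against 8.25% of genes.

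The 10 genes did not vary as one block. Of their 45 pairs, 27 had a positive Pearson's r of log2(CPM + 1) over the 15 libraries, the median r was 0.19, and 5 pairs were above 0.5. These were Gp1bb with Gp5 (0.67), Pf4 with Nfe2 (0.65), Gp9 with Cd9 (0.59), Itga2b with Gp9 (0.58) and Pf4 with Clec1a (0.51). Within the receptor complex, Gp9 went with neither Gp5 (-0.26) nor Gp1bb (-0.22), and Vwf had its lowest value with Cd9 (-0.45). The points share the depth and the group of their library and, for patchy genes, libraries at or near 0, so these are descriptions.

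**Figure D4:**
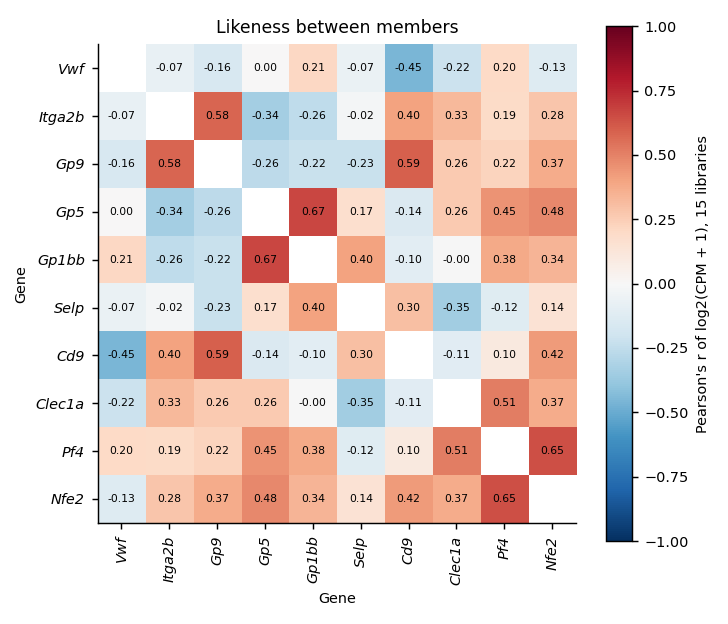
Pearson's r between each pair of the 10 genes, from log2(CPM + 1) in 15 libraries, on a colour scale from -1 (blue) to 1 (red). Gp1bb and Gp5 are the most alike pair (0.67), and Vwf and Cd9 the least (-0.45).

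Among the 10191 genes with a mean of at least 10 CPM, those with the highest r to Vwf over the 15 libraries were Gm10132 (0.85), Gm10288 (0.84) and Mindy2 (0.82). Those with the highest r to Itga2b were 9330151L19Rik (0.86), Lims1 (0.80) and Dhx38 (0.80). None of the other 9 members was among them.

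A further 59 megakaryocyte and platelet genes, listed from general knowledge, give the background of the lineage. Their most abundant transcription factor was Meis1 (330.2 to 795 CPM), their most abundant granule gene Mmrn1 (91.8 to 378 CPM) and their most abundant cytoskeletal gene Tln1 (200.5 to 668 CPM). Among the 8 genes of the list for platelets and mature megakaryocytes, Itgb3 had over 3 counts in 15 of 15 libraries, Pf4 in 13, Treml1 and Gp1ba in 9, the chemokine Ppbp in 5, Clec1b in 4, Tubb1 in 2 and the collagen receptor Gp6 in 1, with 146 CPM of Ppbp in central WT library A.

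In endosteal (compared with central) WT HSCs, the 44 tested genes of the longer list had a median log2 fold change of 0.06, and 2 were higher and 2 lower under an unadjusted p of 0.05, against the 4.43% and 3.46% of all genes given above. Gata1, a master factor of the megakaryocyte and erythroid lineages, had 62.7, 9.57, 65.7 and 60.1 CPM in endosteal WT and 5.42, 0.310, 1.34 and 0.336 CPM in central WT libraries. The groups did not overlap, and the log2 fold change was 4.85 ± 1.24 (FDR = 0.368 with edgeR and 0.00343 with DESeq2). Gp1ba was also higher in every endosteal WT library (5.38 to 20.6 CPM) than in every central WT library (0.930 to 1.81 CPM), with 3.29 ± 1.06. No central WT library held more than 5 reads of Gp1ba, and Gata1 was near the floor in most of them. Both genes thus needed the endosteal libraries to pass the filter on low counts. A gene kept in this way can hardly come out lower, so the direction of both may rest in part on the filter. Nrgn, which encodes a calmodulin-binding protein found in platelets, was lower at -2.05 ± 0.57. In libraries labelled Gfra2-/-, 1 of 47 tested genes was higher (F2r, the thrombin receptor PAR1, 1.41 ± 0.54) and 0 were lower, against 2.74% and 2.05% of all genes.

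In central Gfra2-/- (compared with WT) HSCs, 1 of 47 tested genes was higher and 4 were lower at that limit, against 4.6% and 4.14% of all genes. Nrgn (-2.32 ± 0.65), Itgb3 (-2.51 ± 0.73), Tal1 (-1.27 ± 0.48) and Cd63 (-0.86 ± 0.38) were lower, the last a tetraspanin of granule membranes. Itgb3, the partner of Itga2b, had 269, 42.8, 146 and 122 CPM in central WT and 45.4, 14.1 and 18.2 CPM in central Gfra2-/- libraries, while Itga2b itself differed by 0.26. In endosteal HSCs, 0 of 46 tested genes were higher and 4 were lower in libraries labelled Gfra2-/-, against 3.18% and 3.52% of all genes (Cd63, Tal1, Zfpm1, which encodes the GATA1 cofactor FOG1, and F5, coagulation factor V). None of these genes passed an FDR of 0.1 with edgeR, and 2 of 44 (Gata1 and Nrgn) and 2 of 47 (Nrgn and Itgb3) did with DESeq2 in the WT and central comparisons, against 1.97% and 3.59% of all genes.

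Marker lists of other cell types were read beside these values. The HSC list (11 genes) summed to between 2097 and 4273 CPM in every library. In endosteal (compared with central) libraries labelled Gfra2-/-, 8 of 11 genes had a negative value (median log2 fold change -0.48). At an unadjusted p of 0.05, 2 were lower and 0 higher, against 2.05% and 2.74% of all genes. In central Gfra2-/- (compared with WT) HSCs, 8 of 11 were positive (median 0.39), with 2 higher and 0 lower, against 4.6% and 4.14%. In the other pairwise comparisons 0 were higher and 0 lower at that limit. The endothelial list (10 genes, Tie1 the most abundant, which HSCs also express) summed to 252 to 788 CPM, but its defining gene Cdh5 was at 0 in 15 of 15 libraries. Other genes of this list had reads, with up to 300.2 CPM of Emcn and 73.2 CPM of Cldn5 in central WT library B and 127 CPM of Kdr in central WT library A. In endosteal (compared with central) HSCs, 4 of 6 tested genes of this list had a negative value in WT (median log2 fold change -0.58) and 6 of 6 in libraries labelled Gfra2-/- (median -0.71), beside -0.48 and -1.21 for Vwf. In each genotype 2 of the 6 were lower and 0 higher at an unadjusted p of 0.05, against 3.46% and 2.05% of all genes for lower values. The lowest sum was in endosteal Gfra2-/- library B, which was also lowest for Vwf. The highest was in central Gfra2-/- library C, the lowest of its group for Vwf at 111.8 CPM. The stromal and bone list (9 genes, Runx2 the most abundant) summed to 109 to 296 CPM and, without Runx2, to 0.283 to 60.9 CPM. Lepr was at 0 in 14 libraries, and the highest of the others was Col1a2, with 52.5 CPM in endosteal WT library C.

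Other lists set single libraries apart. The lymphoid list (11 genes, Cd79b the most abundant overall) summed to 2932 CPM in endosteal Gfra2-/- library D and to between 45.4 and 519 CPM in the other 14, and that library also held 328 CPM of the globin Hbb-bs, against at most 4.48 CPM elsewhere. It was 1 of the 2 libraries low for Vwf and had no count of Gp5 or Selp. The myeloid list (11 genes, Lyz2 the most abundant) was highest in central WT libraries D (3910 CPM) and C (2616 CPM), the libraries lowest for Pf4. Without Lyz2, library D held 3349 CPM and library C 186 CPM, the latter within the 75.3 to 432 CPM of the other 13. The erythroid list (11 genes, Car2 the most abundant) summed to 1904 to 3061 CPM in endosteal and 1221 to 2328 CPM in central libraries labelled Gfra2-/-, and to 784 to 1527 CPM in WT libraries. Without Car2 the sums overlapped, with 30.8 to 181 CPM in 6 of 7 libraries labelled Gfra2-/-, 681 CPM in endosteal Gfra2-/- library D and 31.6 to 112 CPM in WT libraries. In endosteal Gfra2-/- (compared with WT) HSCs, 4 of 7 tested erythroid genes were higher and 0 lower at an unadjusted p of 0.05. All genes tested gave 3.18% and 3.52%, and the median log2 fold change of the list was 2.84. The filter on low counts can pass a gene through 1 group alone, and such a gene can hardly come out lower there. Klf1 of this list had 1.27 to 28.3 CPM in endosteal Gfra2-/- and 0 to 1.81 CPM in endosteal WT libraries. The count of higher genes and the median may thus rest in part on the filter. In central HSCs 1 of 3 was higher and 0 lower, against 4.6% and 4.14%, with a median of 0.88. The list of platelet and mature megakaryocyte genes (8 genes, Itgb3 the most abundant, which also holds Pf4) ranged from 25.3 CPM in endosteal Gfra2-/- library D to 429 CPM in central WT library A, with no order by group. The part of these other cells or RNAs in the values of the 10 genes was not tested.

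**Figure D5:**
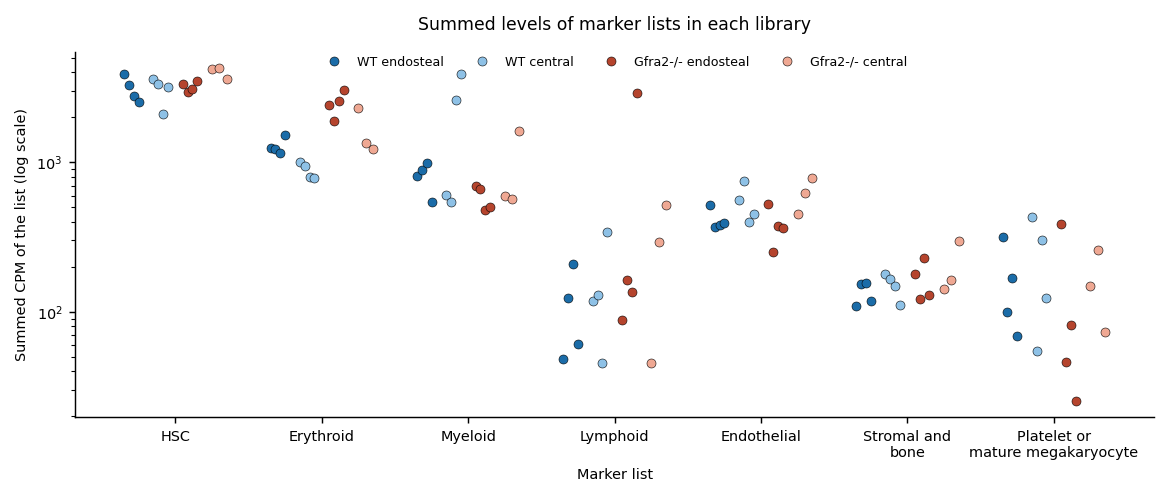
Summed CPM (log scale) of 7 marker lists in each of the 15 libraries, coloured by group. Endosteal Gfra2-/- library D stands apart for lymphoid genes (2932 CPM), and central WT libraries D and C for myeloid genes (3910 and 2616 CPM, or 3349 and 186 CPM without Lyz2).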

How the data were processed

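Per the labels and the methods, the authors made Smart-seq2 libraries, aligned reads to GRCm38 (mm10) with GSNAP and counted them on genes with HTSeq 0.5.3p3 regardless of strand. The deposited values are raw counts per gene. The groups of the table's columns follow the study's list of libraries. One sample of the labels was not analysed here, and 1 column of per-sample values was not used. The members and gene lists were chosen with earlier results of these data known. Counts were tested with edgeR 4.0.16 (filterByExpr, TMM, quasi-likelihood, Benjamini-Hochberg over all genes tested) in R 4.3.3, and the procedure was tested on simulated data. DESeq2 1.42.0 was an alternative (the authors name DESeq2 for their size factors and give no version), beside other size factors, filters, thinning and sets of libraries. Gene models came from GENCODE M21 and promoter windows from RefSeq. Printed with a fold change were members at an unadjusted p under 0.05, Vwf and Itga2b in each pairwise comparison, and up to 4 genes of each other list. Likeness was Pearson's r. Reads are PCR copies without molecular identifiers, so depth and floors cover counting error only. Some results of the other gene lists are not reported here.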

Additional observations from a re-analysis of the deposited data

Results flagged for a closer look

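In 30 groups of 4 libraries (10 genes, 3 groups), 2 values lay further from the rest of their group than Dixon's test allows at the 95% level. For normally distributed values, chance gives about 1 in 20 groups. CPM of patchy genes are skewed, so this share may not hold here, and the 2 values were not shown to exceed chance. Both were in endosteal Gfra2-/- library A. Pf4 had 291 CPM there, with a Dixon's ratio of 0.958, against 17.9 CPM in the next library. Gp1bb had 38.7 CPM there, with a ratio of 0.994, against 0.231 CPM in the next. No test of a cause was made.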

How the results depend on the processing

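No paired analysis was possible because the count columns are not numbered by replicate. The columns run through the groups in the same order as the sample labels, but no label ties a column to a replicate. Pairing by that order was not tested, so the comparisons above do not show whether differences within such sets would be steadier. The 0 members past an FDR of 0.1 with edgeR became 1 (Pf4) in central Gfra2-/- (compared with WT) HSCs with DESeq2 and without the low-count filter, where 134 of 21759 genes passed. For the genotype averaged over compartments they became 2 (Pf4 and Selp) with DESeq2 and 1 (Pf4) with spike-in size factors (460 of 15416 genes passed), without the low-count filter (113 of 25361) and with counts thinned to the smallest library (249 of 11238). Under the other alternatives and with each library left out, the count was 0 in all 7 comparisons. Under spike-in scaling the median over all genes was, on the log2 scale, 1.58 (WT endosteal vs central), -0.46 (the same in Gfra2-/-), 1.75 (central genotype), -0.28 (endosteal genotype), -2.18 (interaction), 0.60 (compartment) and 0.80 (genotype), and each gene's value under it is given after subtracting this median, while its test is of the value before subtraction. Fold changes that reversed were small: Vwf in WT endosteal (compared with central) HSCs (0.26 with spike-ins, the median subtracted), Vwf between genotypes in central (-0.0398 with DESeq2, -0.0406 with its size factors, -0.0305 thinned) and endosteal HSCs (0.0015 without libraries B and D), and Itga2b between genotypes in central (-0.27) and endosteal HSCs (-0.12) with at least 0.5% spike-in reads. With each library left out in turn, Vwf between genotypes in central HSCs ranged from -0.17 to 0.37, and Itga2b between genotypes from -0.0321 to 0.54 in central and from -0.35 to 0.60 in endosteal HSCs. The cause was not tested. Central WT libraries had the fewest reads on genes.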
